A study of Rattus norvegicus with 78 samples.

Results

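The proteasome is the barrel-shaped protease that degrades ubiquitin-tagged proteins, and its genes were followed here in RNA from rat cauda sperm. Members were taken by symbol, as every gene of the array whose name begins with Psma, Psmb, Psmc, Psmd, Psme, Psmf or Psmg and a digit, using probe sets with 1 symbol and, per gene, the probe set of highest mean over 78 arrays. This gave 47 of the 14506 genes that have a probe set with 1 symbol. They were 7 alpha and 7 beta subunits of the standard 20S core, the 3 immunoproteasome subunits Psmb8, Psmb9 and Psmb10, the thymic subunit Psmb11, 6 ATPases and 11 other subunits of the 19S cap, 4 activators and 6 assembly chaperones. The other 2, Psmc3ip (the meiotic recombination cofactor Hop2) and Psme3ip1 (a nuclear protein that binds Psme3), share only the name, and 45 genes remain without them. Psma8, the alpha subunit of spermatocytes, the inhibitor Psmf1 and the chaperone Psmg3 were not analysed here.

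The 20S core stacks rings of alpha subunits, which gate the entrance, on rings of beta subunits, of which Psmb5, Psmb6 and Psmb7 carry the chymotrypsin-like, caspase-like and trypsin-like proteases. The 19S cap binds ubiquitin chains, removes them with the deubiquitinase Psmd14 and threads the protein into the core with its ring of ATPases. In cells exposed to interferon, and in leukocytes at rest, Psmb8, Psmb9 and Psmb10 take the places of Psmb5, Psmb6 and Psmb7, and Psme1 with Psme2 form the PA28 cap; Psme4, or PA200, is the cap known from mouse spermatids, where histones are degraded. Mature sperm carry proteasomes that take part in fertilisation, while their RNA is largely left from spermatids.

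The rats were of the strain Fischer 344 and received corn oil or 1,2-dibromo-3-chloropropane (DBCP), a soil fumigant that damages male germ cells, at 5 mg/kg/day for 3 months. Sperm were taken without recovery from 20 corn oil and 20 DBCP samples, here called the end of exposure, and after a recovery period from 19 corn oil and 19 DBCP samples; the sources used here do not state how long recovery lasted. Each sample, a biological replicate in its label, was hybridised to 1 array. The sperm came out of punctured cauda epididymides and were treated with an ammonium chloride lysis buffer, and large RNA was separated from small RNA. The rats of the recovery groups were also older and were sampled later, so recovery, age and time of sampling cannot be told apart. Values are log2 values per probe set, each array having a median between 6.55 and 6.75. Differences are given on the log2 scale with their standard error (SE), and a gene passed where limma's p, adjusted by Benjamini-Hochberg over 29214 probe sets, was under 0.05.

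The series' title names testis whereas the sample labels name sperm. Markers of late spermatids and sperm were read, but they cannot decide between these, since testis holds late spermatids too. On the earlier corn oil arrays Prm1 had a mean of 12.99, Odf1 14.10 and Smcp 14.15. The mean level of the 14 sperm markers was 10.88 ± 0.38 (SD, n = 20) in corn oil and 11.21 ± 0.43 in DBCP samples when exposure ended, and 10.54 ± 0.24 and 10.52 ± 0.31 (n = 19 each) after recovery. Leukocyte markers lay above the array medians: the mean level of the 13 genes on the array was 8.40 ± 0.23 and 8.23 ± 0.26 at the end of exposure, and 8.84 ± 0.26 and 8.64 ± 0.25 after recovery, with Cd74 at 11.10 on the earlier corn oil arrays. Leukocytes were not the only other cells with such values. On those arrays red cell markers (3 genes) had a mean level of 9.16, and stroma and endothelium (7 genes) 7.79. In such bulk RNA, fewer cells of a type and less RNA per cell cannot be told apart. Since sperm and leukocyte markers move with several proteasome results, their values stand beside them. Limma gave 6 arrays a weight under 0.5, of which 3 were DBCP arrays at the end of exposure, 2 DBCP arrays after recovery and 1 a corn oil array after recovery, and the counts are given with and without them.

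The promoters of the 6 catalytic genes are shown because these genes are compared in pairs below, standard against immunoproteasome subunit. Each line holds the 250 bases before the gene's start, 5′ to 3′ on the gene's strand, from RefSeq (GRCr8). Capitals mark any of 3 motifs on either strand, which do not overlap each other here: TGACNNNGC, the core of the element bound by Nfe2l1 and Nfe2l2, the factors known to induce proteasome genes; GAAA, any 2 bases and GAAA again, the core of the interferon-stimulated response element; and CCAAT, the box bound by NF-Y.
Psmb5 (chr15:32047380-32047629, minus strand): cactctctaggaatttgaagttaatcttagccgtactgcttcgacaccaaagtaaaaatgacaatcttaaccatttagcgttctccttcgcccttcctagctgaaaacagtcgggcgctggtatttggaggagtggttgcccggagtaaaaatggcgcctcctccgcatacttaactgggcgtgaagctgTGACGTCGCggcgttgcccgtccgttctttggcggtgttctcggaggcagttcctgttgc
Psmb6 (chr10:55737638-55737887, plus strand): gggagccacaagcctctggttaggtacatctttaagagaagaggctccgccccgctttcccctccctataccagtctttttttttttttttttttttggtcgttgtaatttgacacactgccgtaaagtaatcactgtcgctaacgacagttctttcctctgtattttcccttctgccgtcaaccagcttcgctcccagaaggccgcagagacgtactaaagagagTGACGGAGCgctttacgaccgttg
Psmb7 (chr3:42827471-42827720, minus strand): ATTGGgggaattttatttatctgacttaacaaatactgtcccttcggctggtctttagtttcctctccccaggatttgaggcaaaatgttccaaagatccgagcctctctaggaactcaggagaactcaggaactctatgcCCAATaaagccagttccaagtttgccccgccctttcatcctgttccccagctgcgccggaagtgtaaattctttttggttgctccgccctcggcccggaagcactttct
Psmb8 (chr20:4657032-4657281, minus strand): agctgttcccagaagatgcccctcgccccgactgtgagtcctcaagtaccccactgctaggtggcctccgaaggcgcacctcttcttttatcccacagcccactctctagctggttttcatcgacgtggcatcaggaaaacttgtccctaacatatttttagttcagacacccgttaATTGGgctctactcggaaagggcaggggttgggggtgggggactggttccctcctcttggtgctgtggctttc
Psmb9 (chr20:4668750-4668999, plus strand): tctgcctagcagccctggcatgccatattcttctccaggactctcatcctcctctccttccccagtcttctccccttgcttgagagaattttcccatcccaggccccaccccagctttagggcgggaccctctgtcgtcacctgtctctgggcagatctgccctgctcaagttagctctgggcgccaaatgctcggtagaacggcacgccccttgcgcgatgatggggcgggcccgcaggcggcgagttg
Psmb10 (chr19:50743293-50743542, minus strand): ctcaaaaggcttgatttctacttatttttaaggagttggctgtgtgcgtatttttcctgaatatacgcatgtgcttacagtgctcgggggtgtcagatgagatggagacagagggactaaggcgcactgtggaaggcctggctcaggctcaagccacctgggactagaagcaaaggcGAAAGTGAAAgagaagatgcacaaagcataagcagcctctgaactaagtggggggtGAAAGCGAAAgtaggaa
TGACNNNGC lies 60 bases before the start of Psmb5 and 24 before that of Psmb6. Psmb10 holds the interferon core at 2 places, the nearer 17 bases before its start, and Psmb8 and Psmb9 hold none of it in this window. Psmb9 shows no match to the 3 motifs, which says only that these letters are not in this window. Promoters were matched for 41 of the 47 genes. TGACNNNGC was in 6 of them (14.6%) against 10.2% of 27457 promoters, the interferon core in 5 (12.2%) against 3.29%, and CCAAT in 19 (46.3%) against 34.3%. These matches are a description and were not tested.

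At the end of exposure, DBCP samples were set against corn oil samples to address whether the toxicant left a mark on sperm RNA. Most proteasome probe sets lay slightly higher on the DBCP arrays, by amounts that did not pass the test. Of 47 members 0 were called, against 0.0% of all probe sets, while 12 members and 3386 of all 29214 probe sets had an unadjusted p under 0.05. The log2 difference was above 0 for 38 members and below 0 for 9, with a median of 0.09 beside -0.02 over all probe sets. Of the 29214 probe sets, 11109 were above 0. All 7 classes of proteasome subunit or helper with more than 1 gene had a median above 0, from 0.01 for the chaperones to 0.14 for the activators. The member with the lowest adjusted p was Psme3, or PA28 gamma, the nuclear activator. It ranged from 7.70 to 8.25 (median 8.05) on corn oil arrays and from 7.86 to 8.62 (median 8.19) on DBCP arrays, so the groups overlapped widely. Its difference was 0.18 ± 0.06 (limma adjusted p = 0.167), and its second, dimmer probe set had -0.06 ± 0.07.

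Psma6, the alpha 1 subunit, had the largest log2 difference of the 47 in this comparison. Its values were 7.85 to 9.63 (median 8.42) on corn oil and 7.89 to 10.65 (median 8.95) on DBCP arrays, with 15 of 20 DBCP arrays above the corn oil mean. The difference of 0.44 ± 0.14 did not pass (limma adjusted p = 0.181). Psmc2, the ATPase Rpt1, had 0.25 ± 0.08 (limma adjusted p = 0.186), Psmb5, the chymotrypsin-like subunit, 0.35 ± 0.12 (0.216), and Psmd12, the lid subunit Rpn5, 0.13 ± 0.05 (0.247). Of the other core proteases, Psmb6 had -0.02 ± 0.04 and Psmb7 0.17 ± 0.08. The immunoproteasome subunits had 0.03 ± 0.04 (Psmb8), 0.23 ± 0.09 (Psmb9) and 0.02 ± 0.04 (Psmb10). The caps Psme1 and Psme2 had 0.06 ± 0.06 and 0.13 ± 0.07, the spermatid cap Psme4 0.14 ± 0.09 and the deubiquitinase Psmd14 0.05 ± 0.07; each of these genes also missed the threshold. The median of the 47 was 0.02 among the arrays with replicate numbers 1 to 10 and 0.17 among those with numbers 11 to 20, and 0.05 without the 6 arrays that limma weighted under 0.5. In the same comparison the 14 sperm markers were all above 0 (median 0.40) and the 13 leukocyte markers all below 0 (median -0.15), with 0 of either passing. Their part in the proteasome values was not tested here.

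**Figure D1:**
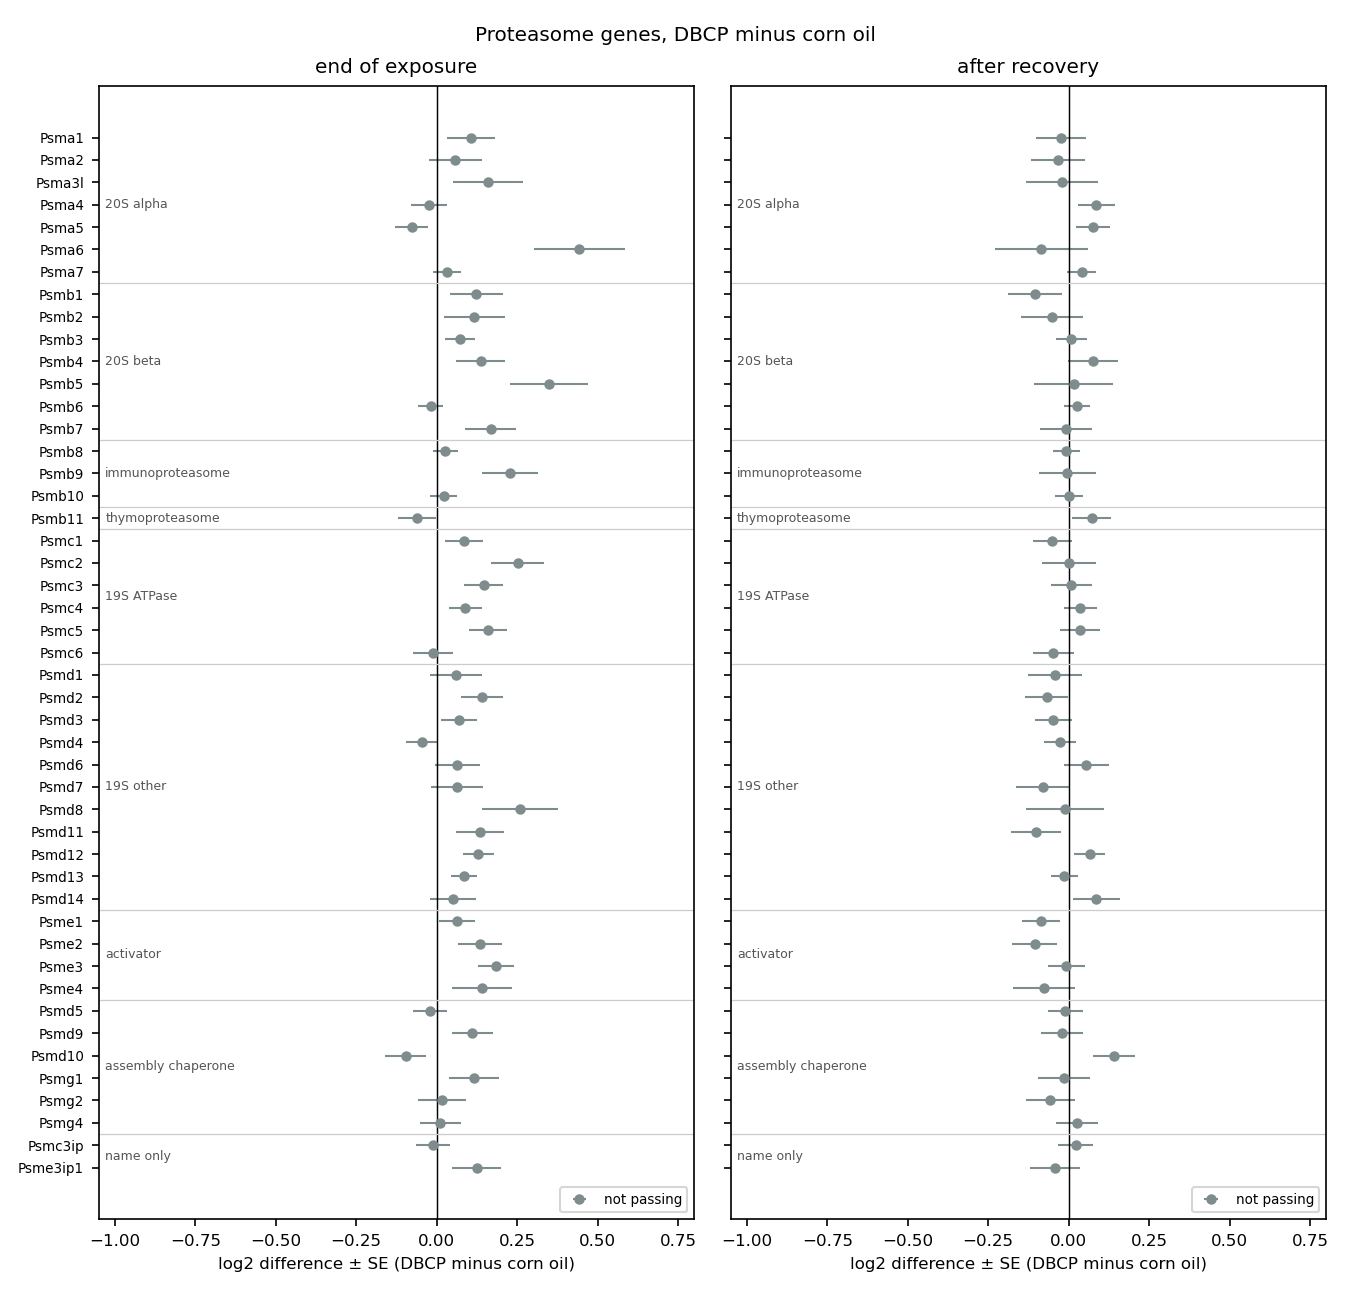
Log2 difference between DBCP and corn oil rats (x axis, point with SE bar) of the 47 genes (y axis, grouped by role), at the end of exposure (left) and after recovery (right). At the end of exposure 38 points lie above 0 and after recovery 19 do, and 0 pass in either panel.

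After recovery the proteasome genes of DBCP and corn oil rats lay close together. Of 47 members 0 were called (0.0% of all probe sets), 19 were above 0 and 28 below, and the median log2 difference was -0.01 beside 0.01 over all probe sets. Above 0 were 16911 of the 29214 probe sets. One member, Psmd10, had an unadjusted p under 0.05, against 1084 of the 29214 probe sets. Psmd10, or gankyrin, a chaperone of the 19S base, ranged from 5.62 to 6.37 (median 5.93) on corn oil and from 5.72 to 6.41 (median 6.03) on DBCP arrays, overlapping almost fully. Its difference was 0.14 ± 0.07. The next by p were Psme2 (-0.11 ± 0.07), Psme1 (-0.09 ± 0.06), Psma4, whose tail forms part of the gate of the core (0.09 ± 0.06), and Psma5 (0.08 ± 0.05); all 5 had a limma adjusted p of 0.983. The immunoproteasome subunits lay between -0.01 and 0.00, and the 10 genes named in every comparison, the core proteases, the immunoproteasome, Psme1, Psme2, Psme4 and Psmd14, between -0.11 and 0.09.

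The interaction asked whether the DBCP difference after recovery differed from that at the end of exposure. Again 0 of 47 members passed (0.0% of all probe sets), while 8 members and 3170 of all probe sets had an unadjusted p under 0.05. The interaction was below 0 for 36 members and above 0 for 11, with a median of -0.12 beside 0.03 over all probe sets. Below 0 were 11243 of the 29214 probe sets. Psma6 had -0.53 ± 0.20, Psmd10 0.24 ± 0.09, Psme2 -0.24 ± 0.10, Psme3 -0.19 ± 0.08 and Psmd2, or Rpn1, the base scaffold that docks ubiquitin shuttles, -0.21 ± 0.09, each with a limma adjusted p of 0.454. A change in the DBCP difference with recovery was not shown for any of the 47 genes.

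The comparison of recovery with the end of exposure was made within each treatment. In corn oil rats 16 of the 47 genes rose and 2 fell, so 18 were called, beside 24.3% of all probe sets called, 11.5% higher and 12.8% lower. Among the 14506 genes with 1 symbol, 28.3% were called, 16.0% higher and 12.3% lower. The median over the members was 0.08 beside -0.04 over all probe sets, with 34 members above 0 and 13 below. Of the 29214 probe sets, 11212 were above 0. The risers came from nearly every part of the complex: 3 of 7 alpha subunits, 3 of 7 standard beta subunits, 1 of 3 immunoproteasome subunits, 1 of 6 ATPases, 2 of 11 other cap subunits, 2 of 6 chaperones and 4 of 4 activators. The fallers were Psmb11, the subunit of thymic epithelium, and Psmc3, the ATPase Rpt5. In every one of the 18 the ranges of both groups overlapped, so none of these rises and falls separated the groups. Beside them, 8 of the 14 sperm markers fell (median -0.34) and 10 of the 13 leukocyte markers rose (median 0.41); 3 of 11 interferon-induced genes rose (median 0.02). The part of these in the proteasome result was not tested.

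Of the 3 standard proteases, Psmb5 and Psmb7 rose in corn oil rats, and no test compared their changes with that of Psmb6. Psmb5 ranged from 6.84 to 8.00 (median 7.56) at the end of exposure and from 7.49 to 8.61 (median 7.96) after recovery, with 18 of 19 recovery arrays above the earlier mean. It rose by 0.48 ± 0.12, or 1.39-fold (limma adjusted p = 0.00291). Psmb7, the trypsin-like subunit, went from 7.85 to 8.61 (median 8.17) to 8.25 to 8.85 (median 8.53), and all 19 recovery arrays lay above the earlier mean, for a rise of 0.34 ± 0.08 (limma adjusted p = 0.00129). Psmb6, the caspase-like subunit, did not pass: it ranged from 7.55 to 7.91 (median 7.74) and then from 7.46 to 7.88 (median 7.64), a difference of -0.10 ± 0.04 (limma adjusted p = 0.0553), and its dimmer probe set had 0.08 ± 0.06. Of the beta subunits without a protease of their own, Psmb1 (beta 6) rose by 0.27 ± 0.08, Psmb2 (beta 4) missed the threshold at 0.24 ± 0.10 (limma adjusted p = 0.0504), and Psmb3 and Psmb4 had 0.03 ± 0.05 and 0.08 ± 0.08.

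**Figure D2:**
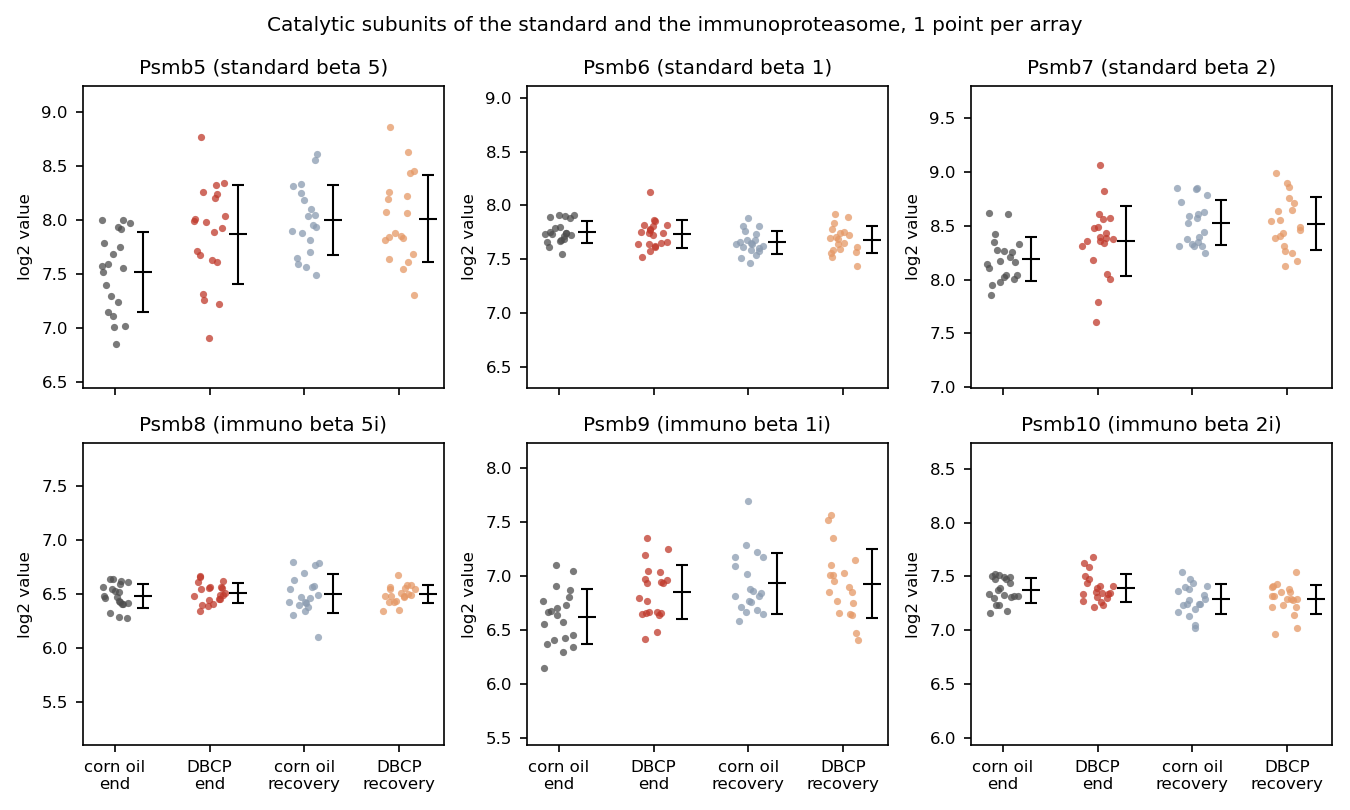
Log2 value per array (y axis, 1 point per array) of the 6 catalytic subunits in the 4 groups (x axis), with the group mean and SD as bars; each panel has its own position on the log2 axis and an equal span, and levels of different probe sets are not comparable. Corn oil points of Psmb5, Psmb7 and Psmb9 lie higher after recovery, with overlap, while those of Psmb6, Psmb8 and Psmb10 lie in narrow and similar bands.

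In the outer rings of the core, Psma2 (alpha 2) rose by 0.36 ± 0.08 and Psma1 (alpha 6) by 0.31 ± 0.08 in corn oil rats, the latter on 19 of 19 arrays. Psma3l, a copy of the alpha 7 gene Psma3, rose by 0.41 ± 0.11 (limma adjusted p = 0.00492); a probe set named for both Psma3l and Psma3 was left out, and RNA of either gene may bind the probes of the other. Psma4, Psma5 and Psma7 had -0.03, -0.04 and 0.02, each within an SE of 0 and none passing. Psma6 pointed down, at -0.31 ± 0.14 (limma adjusted p = 0.103).

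Among the cap subunits, Psmd14 stood out in both treatments. It ranged from 6.43 to 7.25 (median 6.86) and 6.82 to 7.47 (median 7.18) in corn oil rats, before and after recovery, and from 6.21 to 7.43 (median 6.84) and 6.72 to 7.49 (median 7.29) in DBCP rats. It rose by 0.32 ± 0.07 in corn oil rats (limma adjusted p = 0.000794) and by 0.35 ± 0.07 in DBCP rats (limma adjusted p = 0.00023). Psmd11, or Rpn6, the clamp between lid and core, rose by 0.25 ± 0.08 and Psmc2 by 0.24 ± 0.08 in corn oil rats. The call of Psmc2 was lost with the replicate number as a block, in each set of replicate numbers alone, and on leaving out any 1 of 2 arrays. The other 9 cap subunits outside the ATPase ring lay between -0.09 and 0.20 and did not pass. Of the 4 cap subunits below 0, Psmc3, Psmd4, Psmd8 and Psmd13, only Psmc3 passed. It had values of 7.40 to 8.06 (median 7.63) and then 7.23 to 7.68 (median 7.49), and fell by 0.18 ± 0.06 on the log2 scale (limma adjusted p = 0.0264). Centred on the array median, the fall of Psmc3 no longer passed. The remaining ATPases, Psmc1, Psmc4, Psmc5 and Psmc6, lay between 0.05 and 0.12 and did not pass.

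The 4 activators all rose in corn oil rats. Psme2, PA28 beta, ranged from 8.40 to 9.23 (median 8.90) and then from 8.84 to 9.60 (median 9.15), and rose by 0.26 ± 0.07 (limma adjusted p = 0.00439), as did its dimmer probe set by 0.37 ± 0.10 (0.00626). Psme1, PA28 alpha, rose by 0.23 ± 0.06 (limma adjusted p = 0.00213), but its dimmer probe set had -0.00215 ± 0.06. Psme4 rose by 0.30 ± 0.09. Psme3 rose by 0.15 ± 0.06 (limma adjusted p = 0.0374), a call that its dimmer probe set (-0.07 ± 0.07) did not share and that was lost on leaving out any 1 of 8 arrays. Of the chaperones, Psmd9 of the 19S base rose by 0.31 ± 0.06 (limma adjusted p = 0.000319) and Psmg1, or PAC1, of the alpha ring by 0.28 ± 0.08, while Psmd5, Psmd10, Psmg2 and Psmg4 lay between -0.15 and 0.07 and did not pass. Psmb11 fell by 0.22 ± 0.06. It had values of 5.86 to 6.22 (median 6.02) and then 5.31 to 6.08 (median 5.83), all under the lowest array median of 6.55. Psmc3ip and Psme3ip1 had -0.10 ± 0.05 and 0.04 ± 0.08 and did not pass.

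The calls in corn oil rats differed between the sets of replicate numbers. Among numbers 1 to 10 alone, 16 members were called (14 higher and 2 lower, beside 16.3% of all probe sets, 8.6% higher and 7.72% lower) and their median was 0.14. Among numbers 11 to 20 alone, 0 members passed limma's test (1.32% of all probe sets did, 0.989% higher and 0.329% lower) and their median was 0.08. Psmb11, Psmc2, Psmd11, Psme2 and Psme3, called over all arrays, passed in neither set alone. Psmb5 had 0.58 and 0.38 in the respective sets and Psmb7 0.36 and 0.31, so both sets pointed up. The labels say nothing on what separates these numbers.

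In DBCP rats 3 of the 47 genes rose and 2 fell after recovery, beside 13.5% of all probe sets called, 7.28% higher and 6.19% lower (16.4%, 9.02% and 7.42% among genes with 1 symbol). The median over the members was 0.02 and over all probe sets 0.01. Psma6 moved most. Its values ran from 7.89 to 10.65 (median 8.95) at the end of exposure and from 7.68 to 8.88 (median 8.14) after recovery. All 19 recovery arrays lay under the earlier mean, although the ranges overlap. The fall was 0.83 ± 0.14 on the log2 scale, a ratio of 0.561 (limma adjusted p = 1.24e-05), and it passed in both sets of replicate numbers (-0.77 and -0.91). Its second probe set, far dimmer with a mean of 5.28 against 8.49, had -0.06 ± 0.10 (limma adjusted p = 0.722), so the fall rests on 1 of the 2 probe sets of the gene. Psmc3 ran from 7.40 to 8.64 (median 7.77) and then from 7.28 to 7.96 (median 7.47), and fell by 0.32 ± 0.06 (limma adjusted p = 0.000136), also in both sets (-0.27 and -0.36). Beside these falls, 11 of the 14 sperm markers fell in DBCP rats (median -0.77) and 11 of the 13 leukocyte markers rose (median 0.40). Whether the markers had a part in the falls was not tested.

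The risers of the DBCP rats were Psmd14, Psma2 (0.27 ± 0.08, limma adjusted p = 0.0189) and Psmd10 (0.19 ± 0.06, limma adjusted p = 0.0409). Psmd10 ran from 5.45 to 6.33 (median 5.84) and then from 5.72 to 6.41 (median 6.03), and its call was lost on leaving out any 1 of 17 arrays. Psma2 ran from 5.96 to 7.34 (median 6.67) and then from 6.51 to 7.60 (median 6.88). The standard proteases had 0.15 ± 0.12 (Psmb5), -0.06 ± 0.04 (Psmb6) and 0.16 ± 0.08 (Psmb7), and the immunoproteasome -0.01 ± 0.04 (Psmb8), 0.08 ± 0.09 (Psmb9) and -0.10 ± 0.04 (Psmb10), with 0 of these 6 passing. The activators lay between -0.04 and 0.08, and Psmd8, or Rpn12, of the lid, just missed the threshold at -0.33 ± 0.12 (limma adjusted p = 0.0514). The count of 5 called members was 8 in numbers 1 to 10 alone (5 higher and 3 lower, beside 10.4% of all probe sets, 5.95% higher and 4.44% lower) and 2, Psma6 and Psmc3, in numbers 11 to 20 alone (1.73%, with 0.411% higher and 1.32% lower). It was also 8 without replicate 20 of the DBCP group at the end of exposure. Treatments cannot be contrasted by these counts, since the interaction called 0 members.

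**Figure D3:**
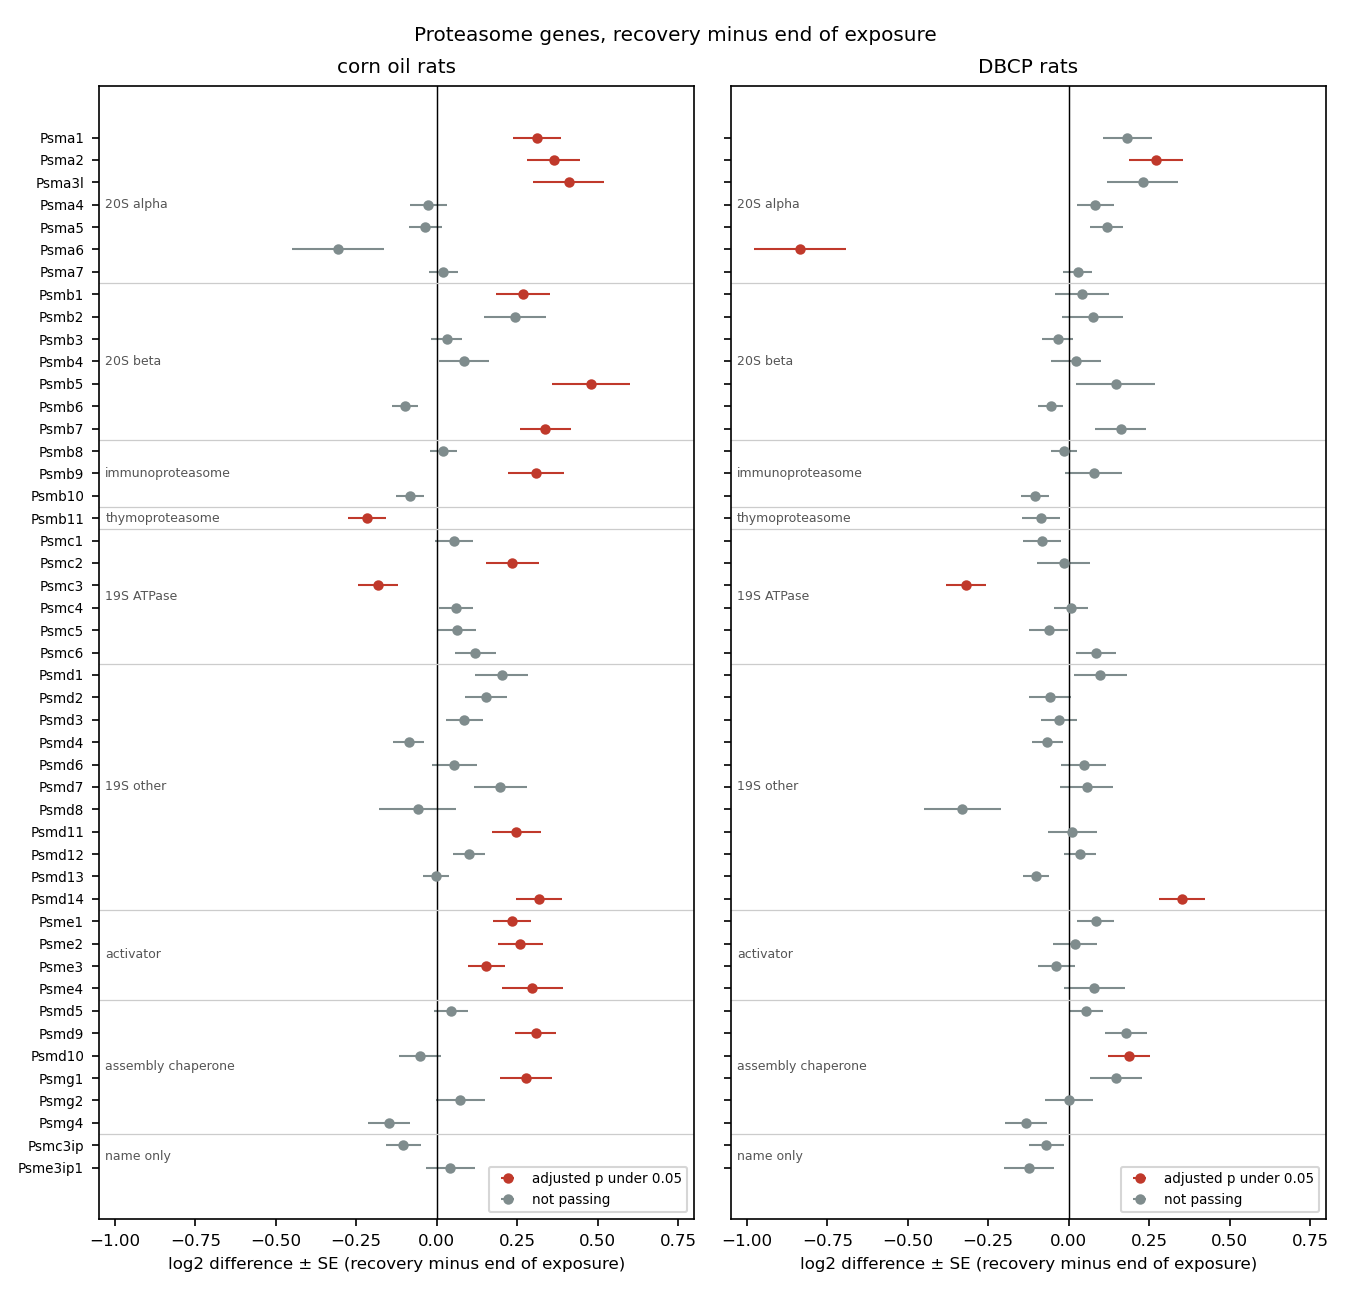
Log2 difference between recovery and end of exposure (x axis, point with SE bar) of the 47 genes (y axis, grouped by role) in corn oil rats (left) and DBCP rats (right); red points passed limma's test. In corn oil rats 16 points passed above 0 and 2 below, and in DBCP rats 3 and 2, with Psma6 at -0.83.

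The immunoproteasome was taken apart from the rest. In corn oil rats only Psmb9 of the 3 subunits passed over time, from values of 6.14 to 7.10 (median 6.65) to values of 6.58 to 7.70 (median 6.85), a rise of 0.31 ± 0.09 (limma adjusted p = 0.00721). Psmb8 ranged from 6.27 to 6.64 (median 6.48) and from 6.10 to 6.80 (median 6.47), with a difference of 0.02 ± 0.04. Psmb10 ranged from 7.16 to 7.52 (median 7.36) and from 7.02 to 7.54 (median 7.28), with -0.08 ± 0.04.

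Each immunoproteasome subunit was then set against the standard subunit whose place it takes, as the difference of both log2 values on the same array, with a two-sided permutation test of the group means (100000 resamples, adjusted over 12 tests). Only changes of this difference between groups are read, since probe sets have no common scale. In corn oil rats over time, Psmb8 minus Psmb5 changed by -0.46 ± 0.12 (permutation adjusted p = 0.00292), lower than the earlier mean on 17 of 19 arrays. Psmb10 minus Psmb7 changed by -0.42 ± 0.08 (permutation adjusted p = 0.00012, from an unadjusted p of 1e-05, the smallest that the resamples can give), on 18 of 19. Psmb9 minus Psmb6 went the other way, by 0.41 ± 0.10 (permutation adjusted p = 0.00132), on 18 of 19. Each pair change is the difference of the single-gene changes given above. Psmb5, Psmb7 and Psmb9 had passed alone and Psmb8, Psmb10 and Psmb6 had not, so these tests are not separate evidence. Between arrays of a group, Psmb5, Psmb7 and Psmb9 had Pearson correlations of 0.553, 0.545 and 0.569 with the leukocyte marker level. Psmb8, Psmb10 and Psmb6 had 0.205, -0.137 and -0.091. In this comparison 10 of the 13 leukocyte markers rose and 8 of the 14 sperm markers fell. The part of the markers in the pair changes was not tested.

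The same differences were smaller in the other comparisons. At the end of exposure Psmb9 minus Psmb6 was higher by 0.25 ± 0.09 in DBCP rats (permutation adjusted p = 0.0293), and 18 of 20 of their arrays exceeded the mean of the corn oil arrays. That call was lost under several other settings, the 6 arrays of low weight left out among them (0.23, permutation adjusted p = 0.0593). Psmb8 minus Psmb5 had -0.32 ± 0.14 there (permutation adjusted p = 0.0593) and Psmb10 minus Psmb7 -0.15 ± 0.10 (0.270). All 14 sperm markers were above 0 in that comparison and all 13 leukocyte markers below 0, with 0 of either passing, and their part was not tested. In DBCP rats over time the changes were -0.16 ± 0.14, 0.13 ± 0.11 and -0.27 ± 0.12, in the order Psmb8, Psmb9 and Psmb10, with permutation adjusted p of 0.338, 0.320 and 0.0605. After recovery DBCP and corn oil rats differed by -0.02, -0.03 and 0.01 in the same order, with a permutation adjusted p of 0.928 for each.

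Between arrays of a group, the proteasome genes went up and down together. Taken as deviations from the group means over 78 arrays, the median Pearson correlation over the 1081 pairs of members was 0.307, beside -0.03 between a member and any gene of the array. The arrays share their scaling, so these values are a description. Psmb5 and Psmb7 were the closest pair at 0.853, and Psmb5 was also the closest partner of Psmb2, Psmd1, Psmd2, Psmg1, Psmd9 and Psme3 (0.720 to 0.840). Psmb9 was closest to Psme2 (0.758), and not to Psmb8 or Psmb10. Psma6 was closest to Psmc3 (0.717) and then Psmd8 (0.674), and Psmc3 and Psmd8 were closest to each other (0.764), Psmd8 having 0.750 with Psmc2 and 0.732 with Psme4 too. Psmb6, Psmb10, Psma5 and Psmb11 had median correlations with the other members of -0.14, -0.19, -0.16 and -0.22, and Psmc3ip and Psmd4 had -0.11 and -0.04.

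**Figure D4:**
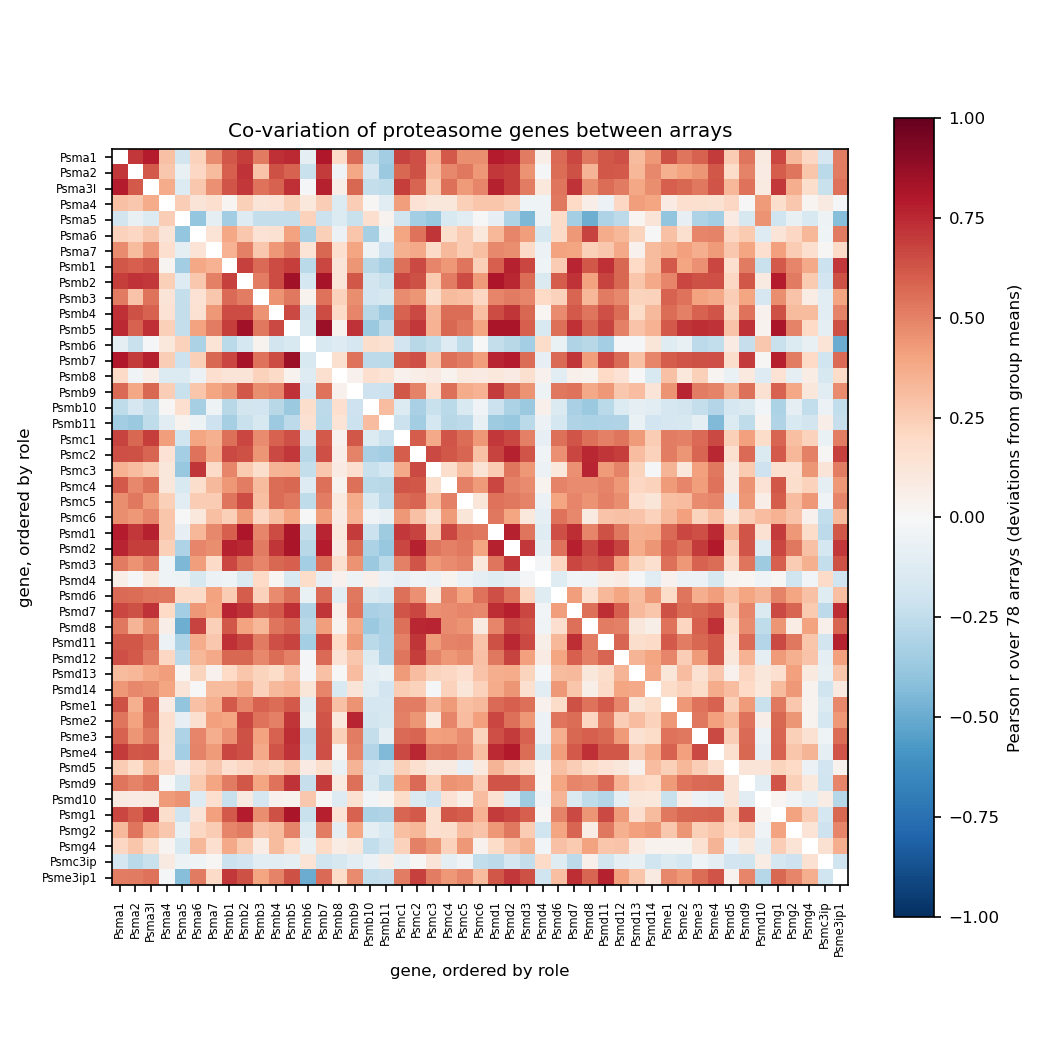
Pearson correlation (colour) between each pair of the 47 genes (both axes, ordered by role) over 78 arrays, taken as deviations from the group means. Most of the 1081 pairs are red, with a median of 0.307, while the rows of Psma5, Psmb6, Psmb10 and Psmb11 are mostly pale or blue.

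Single arrays stood out in the same way. Replicate 7 of the DBCP recovery group held its group's highest value for 31 of the 47 genes, and replicate 20 of the DBCP group at the end of exposure for 20. Both were among the 6 arrays that limma weighted under 0.5, with weights of 0.183 and 0.320. Replicate 7 of the DBCP group at the end of exposure held the lowest value of its group for 20 genes, and it had the lowest leukocyte level of its group (7.69). How often these arrays were extreme over all genes was not counted, so the counts do not show a trait of the proteasome. Without the 6 arrays of low weight, 21 members were called over time in corn oil rats (18 higher and 3 lower), beside 26.2% of all probe sets (11.9% higher and 14.3% lower). In DBCP rats 7 were called (3 higher and 4 lower), beside 11.7% (6.48% higher and 5.19% lower).

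The deviations were also set against the levels of 3 marker lists on the same arrays, in 141 relations with permutation p-values adjusted together. With the leukocyte level 28 of 47 members passed above 0 and 1 below; of all 14506 genes with 1 symbol, 26.0% had an r at least as high as the smallest that passed (0.274) and 29.6% one as far below 0. The median r was 0.407 beside -0.07 over those genes. Psme2 had r = 0.665 and rho = 0.631 (permutation p = 1e-05 for each, the smallest possible; adjusted 6.13e-05 and 7.83e-05); r was 0.642 without the 2 arrays farthest from the median level, and 0.744 and 0.550 in replicate numbers 1 to 10 and 11 to 20. Psmb9 had r = 0.569 and rho = 0.527 and Psmb5 r = 0.553 and rho = 0.537, with the same permutation p. Psma5 was the 1 member that passed below 0, with r = -0.380 and rho = -0.327 (permutation adjusted p = 0.00192 and 0.0132). Psmb8 and Psmb10, although induced by interferon and usual in leukocytes, had r = 0.205 and -0.137 and did not pass.

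With the sperm level 18 members passed above 0 and 4 below, where 18.6% of all genes lay at or above the smallest r that passed (0.290) and 31.1% as far below 0. The median r was 0.229 beside -0.12 over all genes. The relation of Psma6 was the closest of the 141, at r = 0.858 and rho = 0.803 (permutation p = 1e-05 for each), 0.840 without the 2 arrays farthest out and 0.819 and 0.886 in the sets of replicate numbers. Psmd8 followed with r = 0.708 and rho = 0.611 and Psmc3 with r = 0.694 and rho = 0.575 (permutation adjusted p = 6.13e-05 for each r). In DBCP rats over time these had the lowest differences of the 47, of which that of Psmd8 did not pass, and sperm markers fell there too. Psmc2, with r = 0.560, moved little there, from a mean of 7.15 to 7.13. The part of the sperm level in these differences was not tested. Psma5 was again below 0 (r = -0.458, rho = -0.327, permutation adjusted p = 0.000188 and 0.0128). With the level of epididymal principal cells, 0 of the 47 passed by permutation, and the median r was 0.06 beside -0.007 over all genes. There r was above 0 for 74.5% of the members and 47.7% of all genes.

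**Figure D5:**
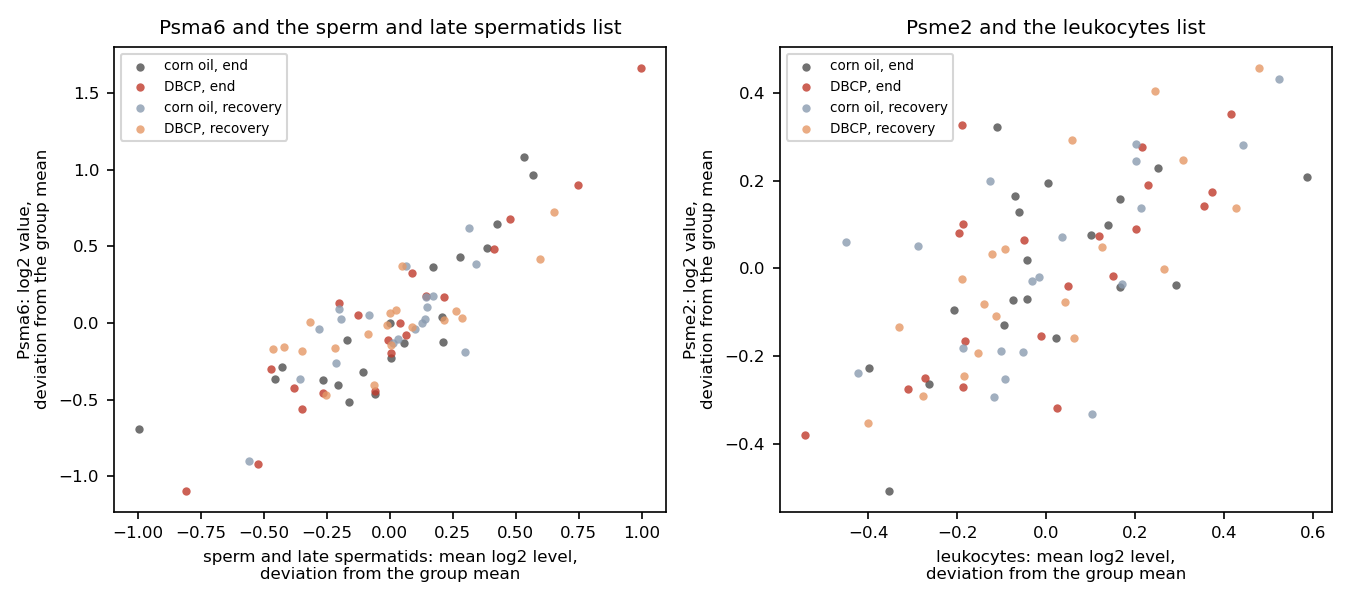
Deviation from the group mean of the log2 value of Psma6 against that of the sperm marker level (left) and of Psme2 against that of the leukocyte marker level (right), both axes in log2 units, 1 point per array, coloured by group. Both rise, with r = 0.858 and 0.665 over 78 arrays; within the 4 groups r lay between 0.732 and 0.947 (left) and between 0.584 and 0.799 (right).

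Proteins that work with the proteasome were given by a list of 35 ubiquitin shuttles, activating enzymes, deubiquitinases and regulators, of which 26 were on the array. Over time in corn oil rats 11 of them rose and 2 fell (median 0.17), beside 28.3% of genes with 1 symbol called, 16.0% higher and 12.3% lower. There 8 of 14 sperm markers fell and 10 of 13 leukocyte markers rose. The 3 largest changes were those of Ubqlnl, a ubiquilin-like shuttle gene, which fell by 0.74 ± 0.16, Rad23b, a shuttle that binds the cap, which rose by 0.45 ± 0.10, and Uba6, a ubiquitin-activating enzyme, which rose by 0.41 ± 0.08 (limma adjusted p = 0.000456, 0.000862 and 9.39e-05). In DBCP rats 1 rose and 4 fell (median 0.00), beside 16.4% of those genes, 9.02% higher and 7.42% lower, while 11 of 14 sperm markers fell and 11 of 13 leukocyte markers rose. The part of the markers in these values was not tested. There Ubqlnl fell by 1.28 ± 0.16 (limma adjusted p = 2.81e-08) and Bag6, a chaperone that hands stray membrane proteins to the proteasome, by 0.53 ± 0.11, while Uba6 rose by 0.48 ± 0.08. Between DBCP and corn oil 0 of the 26 passed at either time or in the interaction. At the end of exposure 25 of 26 were above 0 (median 0.13), beside 6482 of the 14506 genes with 1 symbol (median -0.01). Uchl5, the deubiquitinase of the cap, had 0.57 ± 0.14 and Ubqlnl 0.60 ± 0.16 (limma adjusted p = 0.120 each). After recovery 22 of 26 were below 0 (median -0.03), beside 6625 of the 14506 genes (median 0.01). The interaction was below 0 for 23 (median -0.17), beside 6561 of those genes (median 0.01).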

How the data were processed

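RNA of 78 sperm samples was measured on 1 array each, in 4 groups taken from the labels. The log2 values were used as deposited by the authors; the submitters' processing notes name limma without a version, and the background correction, normalization and summarisation are steps that the sources used here do not give. The 29214 probe sets had 0 missing values, 15310 had 1 symbol in the platform annotation, 323 several and 13581 none. Precision depends on the number of arrays, and the members' SE had a median of 0.06 for DBCP against corn oil before recovery.

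In R 4.3.3, limma 3.58.1 (lmFit, then eBayes) fitted 4 group means over the 78 arrays, with 5 contrasts and Benjamini-Hochberg adjustment over all probe sets. Counts such as 18 of 19 give the first group's arrays beyond the other group's mean. On data simulated for the DBCP comparison before recovery (29214 probe sets), 56 of 100 shifts of 0.25 and 93 of 100 of 0.5 were recovered, with 8 false calls. The simulated noise was normal and independent between probe sets, with an equal SD in the 4 groups. In the real data genes co-vary and some arrays have low weight, so these counts need not hold there. Subunit pairs and relations with marker levels were tested by permutation in Python 3.11.15 (numpy 2.4.6, pandas 2.3.3), on all or on within-group deviations. P-values measure the spread between samples that the labels call biological replicates.

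Members, lists and tests were chosen with earlier results of these data known. Named were the members called in a contrast (up to 10 per direction) or, where fewer than 3 passed, the 5 of smallest p, with 10 fixed genes; all others are given by class. Psmb1, Psmb2, Psmd11, Psmc2 and the uncalled members in the time comparisons are named to account for their class. Same-numbered arrays of different groups were checked for pairing: their deviations had a median correlation of 0.009 over 114 pairs. Arrays of other numbers had 0.003 within a set of replicate numbers and -0.005 between the sets. The labels do not say whether the numbers pair samples, and such small correlations cannot exclude it. Alternatives were quantile normalization, median centring, dim probe sets or those without 1 symbol left out, array weights, leaving out the 6 arrays of low weight, fits on 2 groups, replicate numbers or their sets as a block, each set alone, and the mean of a gene's probe sets. Added after seeing the data were the other probe set, members without the 2 by name only, and leaving out each array.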

Additional observations from a re-analysis of the deposited data

How the results depend on the processing

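In the 3 comparisons that involve DBCP against corn oil, 0 members passed limma under every setting run, and the median stayed between 0.02 and 0.17 at the end of exposure. The count over time in corn oil rats stayed between 16 and 24 except in replicate numbers 11 to 20 alone (0), and between 16 and 22 with any 1 array left out. Of all probe sets, 24.3% were called there in the main comparison and 26.2% without the arrays of low weight. In numbers 1 to 10 and 11 to 20 alone the shares were 16.3% and 1.32%. The same 4 shares in DBCP rats were 13.5%, 11.7%, 10.4% and 1.73%. Shares under the other settings are not given here, so counts under them do not show a trait of the proteasome. The count in DBCP rats was 8 with array weights or in numbers 1 to 10 alone, 3 with the 2 groups fitted alone and 2 in numbers 11 to 20 alone; with any 1 array left out it was 4 to 8, the highest without replicate 20 of DBCP at the end of exposure. With the replicate number as a block it was 16 in corn oil and 6 in DBCP rats. In that block Psmb9 minus Psmb6 at the end of exposure no longer passed, at 0.25, and Psmb10 minus Psmb7 after recovery turned to -0.0235. Psmb9 minus Psmb6 at the end of exposure also lost its call without the arrays of low weight (0.23), in numbers 1 to 10 (0.24) and 11 to 20 (0.25), and by the mean of the probe sets (0.20). In numbers 11 to 20 alone, over time in corn oil rats, Psmb8 minus Psmb5 (-0.28) and Psmb9 minus Psmb6 (0.28) lost theirs; at the end of exposure Psmb8 minus Psmb5 (-0.51) and Psmb10 minus Psmb7 (-0.33) gained one; and Psmb8 minus Psmb5 turned to 0.18 in DBCP rats over time. In numbers 1 to 10, Psmb8 minus Psmb5 (-0.49) and Psmb10 minus Psmb7 (-0.51) passed in DBCP rats over time, the latter also after quantile normalization (-0.30), and Psmb10 minus Psmb7 turned to 0.035 at the end of exposure. After recovery, where no pair passed, signs turned for Psmb8 minus Psmb5 (0.0659 without the arrays of low weight, 0.000256 in numbers 1 to 10), Psmb9 minus Psmb6 (0.00927 in numbers 11 to 20, 0.0343 by the mean of the probe sets) and Psmb10 minus Psmb7 (-0.0102 after quantile normalization, -0.11 in numbers 1 to 10). Single genes that changed sign were uncalled in the main comparison, except Psme1 (-0.002154) and Psme3 (-0.07) over time in corn oil rats, each by its other probe set. By the other probe set these were Psme3 (-0.0586), Psmb6 (0.0743) and Psme1 (-0.052) at the end of exposure, Psme1 after recovery (0.0766), Psme3 in the interaction (0.0548) and Psmb6 over time in corn oil rats (0.0769); Psmb6 at the end of exposure also turned by the mean of its probe sets (0.0282). In numbers 1 to 10 they were Psmc2 (-0.003791), Psme4 (-0.001995) and Psmd14 (-0.0451) at the end of exposure, and Psmb8 (-0.0429) and Psmb10 (0.002726) over time in corn oil rats; Psmb8 was -0.001446 there with array weights. In numbers 11 to 20 they were Psmb6 (0.0342) and Psmb10 (-0.0335) at the end of exposure, and, over time in DBCP rats, Psmb5 (-0.19), Psmb7 (-0.0506), Psmb9 (-0.0583), Psme1 (-0.0187), Psme2 (-0.0535) and Psme4 (-0.12); Psme2 was -0.036 there with array weights and -0.0357 without the arrays of low weight. The sets hold fewer samples; other causes were not tested. Only Psma6 and Psmc3 in DBCP rats passed under each of the 12 settings counted, which leave out the other probe set.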
